A study of Rattus norvegicus with 6 samples.

Results

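The CXC chemokines that attract neutrophils, their platelet-stored relatives and their receptors were examined in punctured rat tail discs. They are the genes whose name in the deposited table is Cxcl1, Cxcl2, Cxcl3, Cxcl6, Ppbp, Pf4, Cxcr1 or Cxcr2, and each name had 1 row, so that 8 of the 30562 genes of the table belong to the group. The study tested an intradiscal nanocarrier against disc degeneration in 12-week-old male Sprague–Dawley rats of wild-type genotype, in which a needle puncture of a tail disc starts the degeneration. By the paper, Control discs received PBS, and the other group received AF-PTK@LEV@SPP1, a fusion of liposomes with outer membrane vesicles of E. coli lacking msbB, which carries a peptide that binds the annulus fibrosus on a linker cut by reactive oxygen species and is loaded with an siRNA against Spp1. Injections of 10 μL with 1 mg/kg of siRNA began 24 h after surgery, treatment ran for 8 weeks, and disc tissue of 3 rats per group was sequenced in bulk. The sample records instead name an untreated Control, 14 days of treatment and sorted macrophages of mice, while the gene identifiers are those of rat. Puncture of a tail disc is an acute injury that opens the annulus, and bulk tissue of such a disc holds disc cells together with whatever blood, marrow, fat or muscle was taken with it.

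Neutrophil-attracting CXC chemokines carry the residues Glu-Leu-Arg (ELR) before their paired cysteines and act on CXCR2 and, for some of them, CXCR1, which are receptors coupled to inhibitory G proteins on neutrophils. Stromal, endothelial and myeloid cells transcribe Cxcl1, Cxcl2, Cxcl3 and Cxcl6 in response to interleukin-1, tumour necrosis factor and interleukin-17, largely through NF-κB, and their mRNA is short-lived. The uninjured disc has few vessels, and leukocytes reach it mainly through fissures and the granulation tissue that follows injury.

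The 3 Control libraries held 17942989, 16565291 and 17489851 counts and the 3 labelled AF-PTK@LEV@SPP1, called the libraries labelled treated from here on, held 17074981, 15560728 and 17855184. Spp1, the target of the siRNA, stood at 8125, 4424 and 4428 CPM (counts brought to the same total in all libraries, with TMM normalization for composition) in Control replicates 1, 2 and 3 and at 8049.6, 6874 and 8437 CPM in the libraries labelled treated. Those libraries were thus, as a group, not lower in the target, and every direction below is relative to the labels. The paper reports Cxcl1, Cxcl2, Cxcl3, Il6 and Nos2 as lower in its treated group in these RNA data. It also reports less iNOS staining in treated discs than in PBS discs. Control replicates 2 and 3 differed in 16 of 14393 genes (0.111%) with at least 20 counts, and their counts varied 1.33 times as much as counting noise, against 51.3 to 107 times for the other pairs within a group. They were therefore counted as 1 sample, which leaves n = 2 distinct Control samples against n = 3. A two-sided exact permutation test over 2 against 3 samples cannot give a p under 0.1. The quasi-likelihood test of edgeR was run over the 15537 genes that passed its filter on low counts, and a gene was called when its p after Benjamini-Hochberg adjustment was under 0.05 and its absolute log2 fold change above 1.

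Transcripts of all 4 ELR ligands made by tissue cells were abundant in every Control library and scarce in every library labelled treated. Cxcl1, a ligand of CXCR2 induced early in injured tissue, had 50.6, 101 and 107 CPM in Control replicates 1, 2 and 3 and 0.176, 1.02 and 1.31 CPM in replicates 1, 2 and 3 of the other group. Cxcl6, the rodent counterpart of granulocyte chemotactic protein and also a ligand of CXCR2, had 71.1, 136 and 130.3 CPM in Control and 0.176, 0.841 and 0.796 CPM in the libraries labelled treated. For both genes the groups did not overlap, Control replicate 1 was the lowest Control library, and AF-PTK@LEV@SPP1 replicate 1 was the lowest of all.

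Cxcl2, which macrophages and neutrophils themselves also release, had 533, 1120 and 1114 counts in Control and 4, 2 and 7 counts in the libraries labelled treated. Cxcl3, a close relative of Cxcl2, had 581, 722 and 722 counts in Control and 0, 0 and 1 counts in the other group. Here too every Control library lay far above every other library, and with so few counts the order among the libraries labelled treated is not measurable.

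Expressed as group means over distinct samples, Cxcl1 was 77.3 ± 37.8 CPM (SD, n = 2) in Control and 0.835 ± 0.588 CPM (SD, n = 3) in AF-PTK@LEV@SPP1, a log2 fold change of -6.52 (SE 0.68, edgeR adjusted p = 0.0221). Cxcl6 was 102 ± 43.7 and 0.604 ± 0.371 CPM, with a log2 fold change of -7.39 (SE 0.56, edgeR adjusted p = 0.0155), and Cxcl2 was 48.8 ± 30.3 and 0.251 ± 0.139 CPM, with -7.56 (SE 0.61, edgeR adjusted p = 0.0182; limma-voom did not call it, adjusted p = 0.0703). For Cxcl3 the libraries labelled treated held 1 count together, so the pooled ratio of Control to AF-PTK@LEV@SPP1 was 2023 with an exact 95% counting interval of 363 to 79959.5, which covers counting error only, and its edgeR adjusted p was 0.00863. These 4 genes were the members called lower, of 7 that passed the filter, and limma-voom called 3 of them, while edgeR called 2.02% of all genes tested lower. With all 6 libraries kept as separate samples the number was again 4, beside 4.62% of all genes. The calls rest on few samples: without AF-PTK@LEV@SPP1 replicate 2, without replicate 3 of that group, or without the Control pair of replicates 2 and 3, edgeR called 0 members, although the log2 fold changes of Cxcl1 were -6.68, -7.00 and -5.91. Across all genes the same omissions left 0, 0 and 3 genes called lower.

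**Figure D1:**
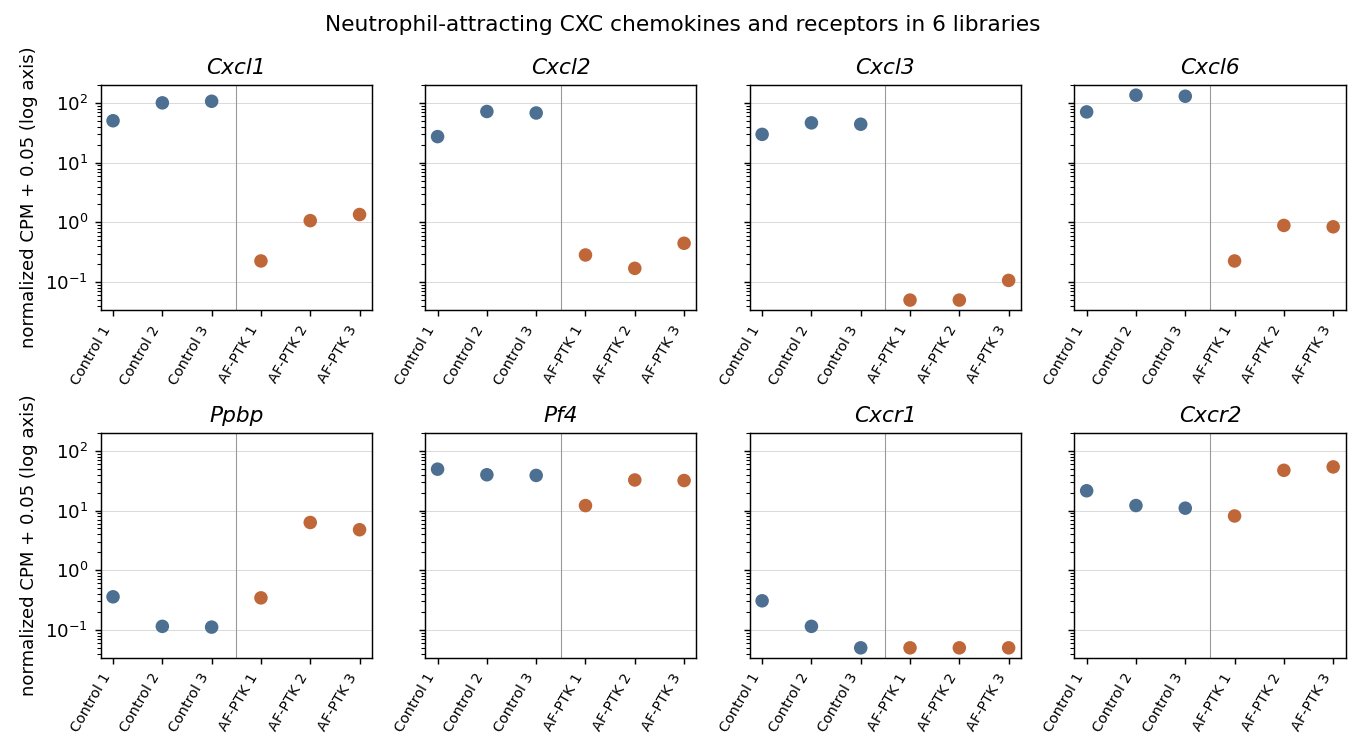
Each panel shows 1 gene, with a point for each library, on a log axis of normalized CPM plus 0.05 shared by all panels. Blue points are Control and orange points (AF-PTK) are AF-PTK@LEV@SPP1. Cxcl1, Cxcl2, Cxcl3 and Cxcl6 lie at 27.4 CPM or more in each Control library and at 1.31 CPM or less in each other library, whereas Ppbp and Cxcr2 are highest in AF-PTK@LEV@SPP1 replicates 2 and 3.

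The platelet chemokines had other patterns than the 4 ligands. Ppbp encodes the precursor of neutrophil-activating peptide, an ELR ligand of CXCR2 that is stored in platelet granules and released on cleavage. It had 6, 1 and 1 counts in Control replicates 1, 2 and 3 and 5, 104 and 83 counts in the libraries labelled treated. Replicates 2 and 3 of that group stood apart from all other libraries, and replicate 1 lay under Control replicate 1, so the groups overlapped. The log2 fold change was 4.42 (SE 1.5) and did not pass the threshold (edgeR adjusted p = 0.156). DESeq2 called Ppbp (adjusted p = 0.00969), and over the alternatives that tested it the adjusted p ran from 0.00969 to 0.443.

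Pf4, platelet factor 4, has no ELR residues, binds heparan sulphate and does not act through CXCR2 as the other ligands do. It had 49.2, 39.7 and 38.7 CPM in Control and 12, 32.4 and 31.8 CPM in the libraries labelled treated. Replicate 1 of the latter group was the lowest library and the others lay just under the Control pair, so the groups did not overlap, but the log2 fold change of -0.80 (SE 0.44) did not pass (edgeR adjusted p = 0.310). Its two-sided exact permutation p was 0.3 over the distinct samples, against 0.1 for each of the 4 ELR ligands. In all, 5 members that passed the filter were lower without overlap between the groups and 0 were higher. Among all genes tested, 22.2% were lower and 23.6% higher without overlap, so this property alone is common in these samples.

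Cxcr2, the receptor through which neutrophils answer all ELR ligands, did not follow the ligands. It had 416, 187 and 178 counts in Control, or 21.4, 12.1 and 10.9 CPM, and 137, 784 and 946 counts in the libraries labelled treated, or 8.05, 47.1 and 53.8 CPM. AF-PTK@LEV@SPP1 replicates 2 and 3 held the highest levels and replicate 1 the lowest of all libraries, with the Control libraries between them. The group means were 16.4 ± 7.00 CPM (SD, n = 2) and 36.3 ± 24.7 CPM (SD, n = 3), and the log2 fold change of 1.15 (SE 0.82, edgeR adjusted p = 0.423) was smaller than the spread among the libraries labelled treated. Cxcr1, the second receptor, had 5, 1 and 0 counts in Control and 0, 0 and 0 in the other group and was removed by the filter. Nearly all of its counts came from Control replicate 1, and no difference is detectable at this depth, where 3 counts in a library, the smallest level taken as measured, correspond to 0.154 to 0.194 CPM. No member was called higher by edgeR or limma-voom, beside 0.888% of all genes called higher by edgeR. DESeq2 called 1 member higher, Ppbp, beside 716 of all 15537 genes tested. Ppbp was also the 1 member with an unadjusted edgeR p under 0.05 and a higher level, for which the share over all genes is not given here.

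Neutrophil transcripts were then set beside the chemokines. The list of precursor granule genes, whose products are made in the marrow before neutrophils leave it, holds 15 genes, of which 13 passed the filter. Its most abundant gene was Ngp, which encodes neutrophilic granule protein and had 1371, 52 and 48 counts in Control and 445, 6328 and 7894 in the libraries labelled treated. Mpo, the myeloperoxidase of primary granules, had 626, 7 and 12 and 377, 2330 and 3295 counts, and Mmp8, neutrophil collagenase, had 1510, 154 and 136 and 443, 3924 and 4368. All 3 genes were highest in AF-PTK@LEV@SPP1 replicates 2 and 3, lowest in Control replicates 2 and 3, and intermediate in Control replicate 1 and AF-PTK@LEV@SPP1 replicate 1, so that the groups overlapped.

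The whole precursor list summed to 341, 308 and 314 CPM in Control and 131, 1280.1 and 1545 CPM in the libraries labelled treated, with Ngp giving 25.7% of the sum. Lcn2, a granule gene that epithelial and stromal cells also induce in inflammation, had another order, with more in the Control pair than in any other library, at 502, 4395 and 4718 counts in Control and 172, 1383 and 1901 counts in the other group. Without Lcn2, a choice made after its values were seen, the sums were 315, 24.7 and 25.6 CPM and 121, 1197 and 1437 CPM. Ltf, lactoferrin of secondary granules, had 1 count in Control replicate 1 and 0 elsewhere, and Bpi had 5 counts in AF-PTK@LEV@SPP1 replicate 2, 1 in replicate 3 and 0 elsewhere. Of the 13 genes, edgeR, DESeq2 and limma-voom each called 0 in either direction, and 0 had an unadjusted edgeR p under 0.05. With the replicate number as a block over 6 libraries, edgeR called Lcn2 lower (log2 fold change -1.51, adjusted p = 0.0316). Their median log2 fold change was 2.04 against 0.05 for all genes tested.

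Mature neutrophil genes split in the same libraries. S100a8 and S100a9 encode the subunits of calprotectin, the main cytosolic protein of neutrophils, and S100a9 had 457, 85.2 and 78.5 CPM in Control and 107, 1056 and 1483 CPM in the libraries labelled treated, with S100a8 at 476, 67.4 and 64.7 and 99.1, 1006 and 1486 CPM. Csf3r, the receptor for the neutrophil growth factor G-CSF, had 16.9, 14.9 and 14.3 CPM and 5.23, 28.8 and 31.8 CPM. All 3 genes were highest in AF-PTK@LEV@SPP1 replicates 2 and 3, as Cxcr2 was, and Csf3r was also lowest in replicate 1 of that group. Mmp9, a gelatinase of neutrophils that osteoclasts and macrophages also make, went the other way, with 1122, 837 and 845 CPM in Control and 300.5, 346 and 286 CPM in the other group (log2 fold change -1.66, SE 0.19, edgeR adjusted p = 0.0260). It was the 1 gene called lower among 16 tested rows of the list, and 0 were called higher. limma-voom called 1 lower and 0 higher, DESeq2 called 2 lower and 1 higher, and 2 lower and 1 higher had an unadjusted edgeR p under 0.05. Clec4e, a receptor of neutrophils and macrophages for damaged cells, had 19.9, 22.8 and 22.1 and 0.999, 4.27 and 5.63 CPM (log2 fold change -2.55, SE 0.64, edgeR adjusted p = 0.0933, DESeq2 adjusted p = 0.00234), and Trem1, an activating receptor of the same cells, had 235, 186 and 197 and 24, 117 and 149 counts without overlap (edgeR adjusted p = 0.361). The median log2 fold change of the list was 0.77, with 9 genes above 0 and 7 below. Its sum was 2221, 1093 and 1090.5 CPM in Control and 575, 2773 and 3608 CPM in the libraries labelled treated, with 31% from S100a9, and without Mmp9, again chosen after its values were seen, 1099, 256 and 245 and 274, 2427 and 3322 CPM.

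Set side by side, the summed ELR ligands Cxcl1, Cxcl2, Cxcl3 and Cxcl6 were 179, 355 and 349.9 CPM in Control and 0.588, 1.98 and 2.56 CPM in the libraries labelled treated. The receptors summed to 21.6, 12.1 and 10.9 and 8.05, 47.1 and 53.8 CPM. The libraries with the most neutrophil transcripts, AF-PTK@LEV@SPP1 replicates 2 and 3, thus had hardly any ligand transcripts, and the Control pair, with the fewest precursor transcripts once Lcn2 was set aside, had the most. AF-PTK@LEV@SPP1 replicate 1 was low in the ligands and in Cxcr2. Its place in the neutrophil sums depended on the genes left out. Its mature sum was 575 CPM with Mmp9, under the Control pair at 1093 and 1090.5 CPM. Leaving out Mmp9 gave 274 CPM, slightly above the pair at 256 and 245 CPM. Its precursor sum was the lowest of all with Lcn2, at 131 CPM, and above the pair without Lcn2, at 121 CPM. In bulk tissue fewer cells of a type and less RNA per cell cannot be told apart, and the part of neutrophil content in the level of any member was not tested.

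**Figure D2:**
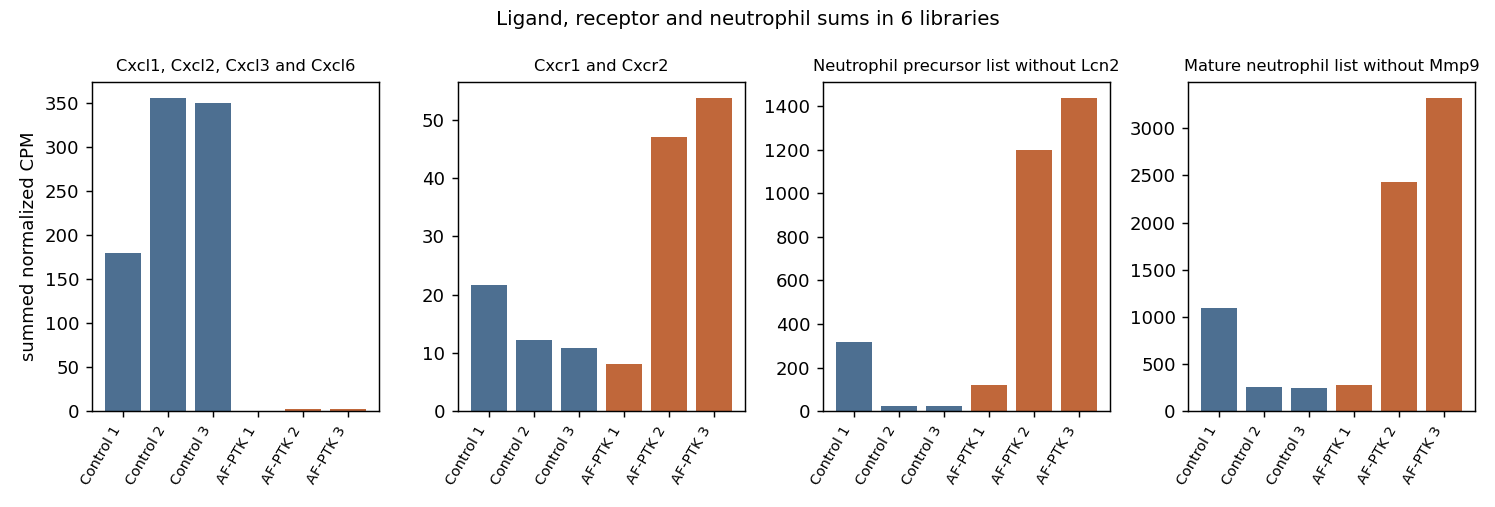
Bars give the summed normalized CPM of the genes named above each panel in each of the 6 libraries, with Control in blue and AF-PTK@LEV@SPP1 (AF-PTK) in orange, each panel with its own axis from 0. The ligand bars are high in the 3 Control libraries, at 179 to 355 CPM, and at most 2.56 CPM in the others, whereas the receptor and neutrophil bars are tallest in AF-PTK@LEV@SPP1 replicates 2 and 3.

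Megakaryocyte and platelet genes were set beside Ppbp and Pf4. Tubb1, the platelet β-tubulin, had 23, 9 and 4 counts in Control and 23, 181 and 183 in the libraries labelled treated. The values of Tubb1 in AF-PTK@LEV@SPP1 replicates 2 and 3 stood apart from the rest, as those of Ppbp did. The most abundant gene of the list, Itgb3, an integrin subunit that osteoclasts and endothelium share with platelets, had 2862, 1137 and 1162 and 623, 836 and 568 counts and gave 33.6% of the sum, and Gp1bb had 0 counts in all libraries. The list summed to 233, 164 and 168 CPM in Control and 155, 227 and 225 CPM in the other group, and without Itgb3 to 86, 90.3 and 96.9 and 118, 177 and 193 CPM. Of that remainder Vwf, also on the endothelial list, gave 53.7, 62.8 and 68.1 and 42, 38.5 and 40.6 CPM. Alox12 gave 9.97, 15.9 and 18 and 59.6, 35.9 and 68 CPM. In AF-PTK@LEV@SPP1 replicate 1 these genes made up most of the remainder, which is thus not a measure of platelet content alone. The median log2 fold change was 2.14, with 13 of 15 genes above 0. Of 15 genes tested, edgeR and limma-voom called 0 in either direction, DESeq2 called 1 lower and 3 higher, and 2 lower and 4 higher had an unadjusted edgeR p under 0.05. The part of platelet content in the level of Ppbp was not tested.

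Of interleukin-1, tumour necrosis factor and interleukin-17 transcripts only Il1a was called lower by edgeR. Il1a, an alarmin released by damaged cells, had 188, 182 and 202 counts in Control and 0, 3 and 2 counts in the libraries labelled treated. Il6, which the same stimuli induce, had 164, 286 and 270 and 2, 6 and 8 counts. The groups lay far apart for both, with log2 fold changes of -6.72 (SE 0.65, edgeR adjusted p = 0.0213) and -5.36 (SE 0.57, edgeR adjusted p = 0.0230), although limma-voom did not call Il6 (adjusted p = 0.0578). Il1r1, the signalling receptor of interleukin-1, fell from 121 ± 11 CPM (SD, n = 2) to 48.6 ± 7.59 CPM (SD, n = 3), a log2 fold change of -1.32 (SE 0.17, edgeR adjusted p = 0.0295). Il1b had 678, 610 and 606 counts in Control and 34, 140 and 134 counts in the other group, without overlap, and missed the threshold by edgeR (adjusted p = 0.0743) and passed it by DESeq2 (adjusted p = 2.81e-04). Tnf, tumour necrosis factor, had 50, 26 and 20 and 2, 23 and 20 counts, near the Control pair in AF-PTK@LEV@SPP1 replicates 2 and 3, and was not called (edgeR adjusted p = 0.435). Il17a, a T cell cytokine that prolongs the life of Cxcl1 mRNA, had 3, 7 and 10 counts in Control and 0 in each library labelled treated, too few for an exact fold change, and it was not tested. With a floor of 3 counts over all libraries labelled treated together, the pooled Control level of Il17a was 6.66 times that floor. Counting error in Control is not included, and Control replicate 1 itself had 3 counts. Of the other receptors, Il17ra had 78.7, 46.3 and 46.1 and 34.4, 114 and 113 CPM and Tnfrsf1a, a receptor of tumour necrosis factor, had 85.9, 107 and 108 and 54.8, 49.3 and 63 CPM, neither of them called. In all 3 of 12 genes tested on the list were called lower, and their median log2 fold change was -1.25. Beside this and every other list, edgeR called 2.02% of all genes tested lower and 0.888% higher.

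Regulators of chemokine mRNA and feedback genes of NF-κB gave 6 called lower of 12 tested, with a median log2 fold change of -1.14. Nfkbiz, the IκBζ cofactor needed for secondary response genes, had 102, 149 and 152 CPM in Control and 25.2, 18.9 and 38 CPM in the libraries labelled treated (log2 fold change -2.21, SE 0.34, edgeR adjusted p = 0.0402). Cebpd, a transcription factor that interleukin-1 and interleukin-17 induce, had 40.7, 53 and 50.3 and 10.7, 8.89 and 13.7 CPM (-2.06 on the log2 scale, SE 0.22, edgeR adjusted p = 0.0230). Zc3h12a, the endonuclease regnase-1 that degrades such mRNAs and is itself induced by NF-κB, had 37.7, 39.3 and 39.8 and 9.11, 9.37 and 10.9 CPM (-1.98 on the log2 scale, SE 0.13, edgeR adjusted p = 0.0119). For Zc3h12a the libraries within each group lay close together, whereas Nfkbiz spread more among the libraries labelled treated, and in none of the 3 genes did the groups overlap. Nfkbia, Tnfaip3 and Relb, further targets of NF-κB, were the other genes called, with log2 fold changes of -1.30, -1.51 and -1.49. The most abundant gene, Nfkb1, had 97.9, 101 and 106 and 65.3, 70.8 and 73 CPM and was not called (edgeR adjusted p = 0.0623), and Rela, which encodes the main activating subunit, had 43.6, 46 and 49.6 and 57.1, 47.3 and 45.3 CPM with overlap between the groups.

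Of the genes that act below the receptors edgeR called 1. Rac2, the small GTPase of blood cells that drives neutrophil movement, had 74.1, 25 and 24.5 CPM in Control and 21.8, 76.7 and 68 CPM in the libraries labelled treated. Gnai2, the inhibitory G protein subunit coupled to CXCR2 and the most abundant gene of the list, had 385, 354 and 358 and 390.4, 363 and 375 CPM. Rac2 was thus lowest in AF-PTK@LEV@SPP1 replicate 1 and the Control pair, and Gnai2 was even across the libraries. Of 20 genes tested 1 was called lower, Rgs1, which shortens G protein signals, with 219, 152 and 152 counts in Control and 23, 35 and 49 in the other group (log2 fold change -2.32, SE 0.33, edgeR adjusted p = 0.0372). DESeq2 called 3 lower, also Rgs2, of the same family (log2 fold change -2.04, edgeR adjusted p = 0.103, DESeq2 adjusted p = 0.00353), and Pik3r5 (DESeq2 adjusted p = 0.00473). The median log2 fold change of the list was 0.01.

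Endothelial display and adhesion genes included 3 called lower of 14 tested, with a median log2 fold change of -0.63. Sele, E-selectin, which activated endothelium shows to rolling neutrophils, had 39, 43.9 and 44.3 CPM in Control and 5.46, 6.43 and 8.41 CPM in the libraries labelled treated (log2 fold change -2.62, SE 0.21, edgeR adjusted p = 0.0174). Selp, P-selectin of endothelium and platelets, had 47.5, 52.8 and 56 and 5.70, 9.91 and 9.66 CPM (-2.60 on the log2 scale, SE 0.26, edgeR adjusted p = 0.0221). For both selectins every library labelled treated lay far under the lowest Control library. Ext1, which extends the heparan sulphate chains that hold chemokines on cell surfaces, was the third gene called, with a log2 fold change of -1.28. Sdc4, the heparan sulphate proteoglycan syndecan-4 and the most abundant gene of the list, had 382, 499.7 and 481 and 373, 196 and 231 CPM and was not called (edgeR adjusted p = 0.232). Ackr1, the receptor that carries chemokines across venules, had 9.09, 7.03 and 6.61 and 5.29, 9.79 and 8.13 CPM with overlap. Endothelial markers as a list summed to 587, 706 and 691 CPM in Control and 436, 509 and 516 CPM in the other group, led by Pecam1. Of these 8 markers edgeR, DESeq2 and limma-voom called 0, and 4 were lower at an unadjusted edgeR p under 0.05, and the part of vessel content in the selectin levels was not tested.

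A list of other neutrophil attractants with receptors and leukotriene enzymes, which make up 8 of its tested genes, gave 0 calls by edgeR or limma-voom among 11 tested, 1 lower by DESeq2, and 2 lower at an unadjusted edgeR p under 0.05, with a median log2 fold change of 0.61. Csf3, the growth factor G-CSF that releases neutrophils from marrow, had 23, 87 and 97 counts in Control and 0, 0 and 2 counts in the libraries labelled treated. Its pooled ratio of Control to AF-PTK@LEV@SPP1 was 103, with an exact 95% counting interval of 28.3 to 859.6, and its edgeR adjusted p was 0.0603. Csf3 therefore lay apart between the groups as the ELR ligands did, and it was not called by edgeR or limma-voom but was the gene called by DESeq2 (adjusted p = 3.60e-04). C3, the complement component from which chemotactic fragments arise, had 211, 539 and 538 CPM in Control and 9.81, 77.9 and 93.7 CPM in the other group (edgeR adjusted p = 0.168). That block over 6 libraries also called C3 lower (edgeR adjusted p = 0.0488). Cxcl12, the marrow retention factor and ligand of Cxcr4, had 326, 64.6 and 67.4 and 463, 665 and 476 CPM (edgeR adjusted p = 0.255), so that the Control pair was lowest and Control replicate 1 lay nearer to the libraries labelled treated.

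CXC ligands without ELR residues were read as a comparison within the chemokine family. Cxcl13, which attracts B cells, had 169, 115 and 113 CPM in Control and 2.94, 1.68 and 0.852 CPM in the libraries labelled treated, a log2 fold change of -6.27 (SE 0.50, edgeR adjusted p = 0.0174). Cxcl16, a transmembrane ligand of CXCR6, had 71.2, 50.8 and 46.8 and 20.2, 18.6 and 21.3 CPM (-1.58 on the log2 scale, SE 0.18, edgeR adjusted p = 0.0260). These were the 2 genes called lower of 7 tested, and a loss of the size seen for the ELR ligands was thus shared by Cxcl13 and not by Cxcl14, at 119, 246 and 248 and 152, 159.5 and 154 CPM. Cxcl9 and Cxcl10, which interferon induces and T cells follow, had at most 41 counts in a library, with overlap between the groups. The median log2 fold change of the list was -0.24. On the 6 lists of inducers, regulators, signalling, adhesion, other attractants and non-ELR ligands, 0 genes were called higher with all samples kept. This held for edgeR, DESeq2 and limma-voom, and 0 were higher at an unadjusted edgeR p under 0.05.

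Markers of other cells differed between the same libraries. Monocyte and macrophage genes, possible sources of Cxcl2, summed to 3169, 2143 and 2124 CPM in Control and 723, 1994 and 2011 CPM in the libraries labelled treated, with 59.8% from Lyz2 and 0 counts of Marco in any library, and without Lyz2 to 1335, 873 and 875 and 451, 756 and 614 CPM. Cd14, the lipopolysaccharide co-receptor, and Cd68, a lysosomal protein of macrophages, were called lower of 13 tested, against 3 genes by DESeq2 (log2 fold changes -1.89 and -1.97). In both genes the libraries labelled treated lay close together, whereas Lyz2, lysozyme of monocytes and neutrophils, was low in replicate 1 alone, at 272, 1237 and 1398 CPM in that group against 1834, 1271 and 1249.8 CPM in Control. T and NK cell genes summed to 18.4, 16.9 and 16.2 and 6.99, 17.7 and 24.9 CPM, led by Nkg7, and without Nkg7 to 13.9, 16.3 and 16 and 5.41, 6.37 and 8.01 CPM. Cd8a and Cd8b were called lower of 8 tested (log2 fold changes -2.19 and -2.73), and DESeq2 called 4 lower and limma-voom 1, without Cd8b (adjusted p = 0.0652). Their part in the levels of the chemokines was not tested.

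Erythroid genes, another marker of marrow or blood, summed to 474, 225 and 224 CPM in Control and 246, 2021 and 989.9 CPM in the libraries labelled treated, led by Tfrc. Leaving out Tfrc, which gave most of the Control sums, left 126.8, 41 and 36.7 and 95.6, 1581 and 740.5 CPM. B cell and B precursor genes summed to 117, 48.9 and 42.2 and 76, 138 and 179.7 CPM, led by Ebf1. Without Ebf1 the sums were 81.1, 11.7 and 9.12 and 37.0, 96.0 and 142 CPM. AF-PTK@LEV@SPP1 replicates 2 and 3 held the highest sums of both lists, as they did for the neutrophil precursors. Among 10 erythroid genes edgeR and limma-voom called 0, DESeq2 called 4 higher, and 2 were higher at an unadjusted edgeR p under 0.05, and among 10 B cell genes the numbers were 0, 1 and 1. Mast cell and basophil genes summed to 28.9, 23.7 and 23.8 and 21.8, 50.9 and 37.8 CPM, led by Kit, with 0 called of 8 by edgeR, DESeq2 or limma-voom and 0 at an unadjusted edgeR p under 0.05.

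Transcripts of tissue around and within the disc also differed between the libraries. Skeletal muscle genes summed to 1009, 1272 and 1289 CPM in Control and 938, 9659 and 2532 CPM in the libraries labelled treated, led by Acta1, with 0 of 7 called by edgeR, DESeq2 or limma-voom and 0 at an unadjusted edgeR p under 0.05. Adipocyte genes summed to 528, 96.3 and 101 and 1132, 1844 and 844 CPM, led by Fabp4, and were lowest in the Control pair. Notochord and nucleus pulposus genes summed to 1679.6, 535 and 525 and 7141, 3953 and 3484 CPM, led by Car3, with 0 counts of Noto in any library. On each of the adipocyte and notochord lists edgeR and limma-voom called 0 genes, DESeq2 called 5 higher, and 5 were higher at an unadjusted edgeR p under 0.05, of 8 and 6 tested. Over all genes DESeq2 called 716 of 15537 higher. Disc matrix cell genes summed to 71066, 103140.0 and 103838 and 149932, 105921 and 137573 CPM, led by Col1a1, and 1 of 10, Cilp, a matrix protein of the intermediate cartilage layer, was called higher (log2 fold change 2.69, SE 0.28, edgeR adjusted p = 0.0221). Collagen genes were thus abundant in all 6 libraries, while the sample records name sorted macrophages.

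The genes with the most similar pattern were then found for Cxcl1, Ppbp and Cxcr2, as the smallest root mean square difference of log2 CPM over the 5 distinct samples after centring each gene on its own mean. For Cxcl1 they were Slpi at 0.26, a secreted inhibitor of neutrophil elastase, Nos2 at 0.26, the inducible nitric oxide synthase, and Cxcl6 at 0.41. Slpi had 12917, 15930 and 16479 counts in Control and 77, 187 and 319 in the libraries labelled treated, and Nos2 had 3841, 4663 and 5016 and 18, 64 and 60. For Cxcr2 they were Mcemp1 at 0.05, a membrane protein of mast cells and neutrophils that is also on the mature neutrophil list, Sytl3 at 0.06 and Srgn at 0.13, the proteoglycan core of blood cell granules. Mcemp1 had 392, 162 and 175 counts in Control and 119, 707 and 820 in the other group, nearly the same course as Cxcr2. For Ppbp they were Pla2g4c at 0.27, Kcna1 at 0.28 and Add2 at 0.30, the adducin of red cell and neuronal membranes.

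The 4 ELR ligands share more than their levels. In the coordinates of the table, whose genome build is not given in the sources used here, Cxcl2 (chromosome 14, 17181062 to 17183075), Cxcl1 (17193365 to 17195215), Cxcl3 (17270146 to 17289511), Pf4 (17298308 to 17299365), Ppbp (17302326 to 17303130) and Cxcl6 (17310426 to 17313093) lie on the minus strand in 1 cluster. Ppbp and Pf4 thus sit between Cxcl3 and Cxcl6 without sharing their pattern across the libraries. Cxcr2 (75729115 to 75739425, plus strand) and Cxcr1 (75766770 to 75771084, minus strand) are neighbours on chromosome 9. The CXC ligands of the cluster resemble each other in sequence, and how reads shared by such genes were counted is not given in the sources used here, so the split between Cxcl1, Cxcl2 and Cxcl3 is uncertain.

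Promoters of 6 members were held by the RefSeq table of GRCr8, and the 250 bases before the start of the gene were searched on both strands, with Cxcl3 and Pf4 having no entry. The NF-κB core GGANTTTCC was found in Cxcl1 and Cxcl6, and in 1.08% of 33469 promoters of the table over the same window. A wider search with the κB decamer consensus, added after the sequences had been read, which overlaps the core, matched Cxcl1, Cxcl2 and Cxcl6 and 6.33% of all promoters. The C/EBP letters TTGCNNAA were found in Cxcl2 and Cxcl6 (9.22% of all promoters), TATAAA in Ppbp (12.9%) and the AP-1 letters TGANTCA in 0 of the 6 members (6.34%). The 3 ligand promoters that carry the decamer and that of Ppbp, which lies in the same cluster and does not carry it, are printed 5′ to 3′ along the gene, all from the minus strand, with the decamer matches in capitals. Their positions in GRCr8 are chr14:17479322-17479571 for Cxcl1, chr14:17467256-17467505 for Cxcl2, chr14:17596418-17596667 for Cxcl6 and chr14:17587300-17587549 for Ppbp. A match is a description of letters and not evidence that the factor binds there.
Cxcl1: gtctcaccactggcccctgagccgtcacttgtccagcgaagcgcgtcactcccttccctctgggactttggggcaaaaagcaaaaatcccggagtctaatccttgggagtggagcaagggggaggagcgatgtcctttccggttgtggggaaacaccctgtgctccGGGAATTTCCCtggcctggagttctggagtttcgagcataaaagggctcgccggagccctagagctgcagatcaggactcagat
Cxcl2: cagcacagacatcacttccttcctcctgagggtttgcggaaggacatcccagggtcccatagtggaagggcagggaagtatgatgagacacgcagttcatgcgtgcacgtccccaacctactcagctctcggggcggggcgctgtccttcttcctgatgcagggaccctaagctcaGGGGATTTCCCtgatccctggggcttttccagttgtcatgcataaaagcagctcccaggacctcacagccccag
Cxcl6: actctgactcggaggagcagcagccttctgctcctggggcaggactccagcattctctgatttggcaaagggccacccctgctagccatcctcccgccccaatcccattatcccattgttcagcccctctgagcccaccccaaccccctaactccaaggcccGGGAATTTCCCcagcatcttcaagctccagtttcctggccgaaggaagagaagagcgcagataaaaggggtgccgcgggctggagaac
Ppbp: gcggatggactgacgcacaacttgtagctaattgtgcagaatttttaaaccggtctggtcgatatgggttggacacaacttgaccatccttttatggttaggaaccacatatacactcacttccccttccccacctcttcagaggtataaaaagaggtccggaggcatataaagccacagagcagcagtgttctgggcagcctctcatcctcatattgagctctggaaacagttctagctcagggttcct
The decamer begins 84 bases before the start of Cxcl1, 74 before that of Cxcl2 and 88 before that of Cxcl6, so that the 3 matches lie at similar distances.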

How the data were processed

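Whole-disc RNA was measured in 6 libraries. The authors deposited counts, whole numbers of reads per Ensembl rat gene counted with featureCounts, without normalization, and the submitters' processing notes also name FastQC, Trimmomatic, HISAT2, DESeq2 and the mouse build mm10, which the rat identifiers contradict. Columns were assigned to samples by group name and replicate number. The counts were tested with edgeR 4.0.16 under R 4.3.3 (trimmed mean of M-values, filterByExpr with a minimum count of 10, quasi-likelihood test, Benjamini-Hochberg adjustment over all genes tested), with Control replicates 2 and 3 summed. CPM per library used factors over the 6 libraries, and group means took the mean of that pair as 1 sample. A prior count of 2 was added for log2 CPM. DESeq2 1.42.0, limma-voom 3.58.1, other normalizations, filters and thresholds, the replicate block and omission of libraries were alternatives, and the procedure was tested on simulated data.

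The 8 genes and the 19 pathway and marker lists were chosen with earlier results of these data known, so the counts on them are descriptions. Beside the DESeq2 counts on the lists, DESeq2 called 695 of all 15537 genes tested lower and 716 higher. For counts at an unadjusted p the share over all genes is not given here. On each list the called genes, at most 3 per direction, and the most abundant genes were to be named, and others were named after their values were seen. Of 217 names on the lists, 2 were matched by a synonym in the GRCr8 gene table and 6 had no match. Slfn4 had a pair of rows, followed by identifier. Nothing says whether each library is a separate rat beyond the paper's 3 rats per group.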

Additional observations from a re-analysis of the deposited data

How the results depend on the processing

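Depth limits what can be said of Cxcr1, Il17a, Ppbp in Control and the 4 ELR ligands in the libraries labelled treated, and 5 distinct samples limit every call. The log2 fold changes of Cxcl1, Cxcl2, Cxcl3, Cxcl6, Pf4 and Cxcr2 kept their sign under all 15 alternatives, and that of Ppbp under the 10 that tested it. The fitted value of Cxcl3 depends on the prior count. The log2 difference of the neutrophil sums between the groups was 1.60 for the precursor list (1.11 to 2.43 over the alternatives) and 0.485 for the mature list (0.0153 to 1.57), where omission of samples, of Lcn2 and of Mmp9 was chosen after seeing the data.

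The fit over 5 distinct samples called 314 genes lower and 138 higher. With 6 libraries kept as 6 samples 695 were lower and 633 higher, and with DESeq2 695 and 716, so that 47.7% and 50.7% of the calls were higher against 30.5%. A log2 fold change above 2 left 145 lower and 61 higher. With the replicate number as a replicate block over 6 libraries, 354 were lower and 246 higher, and Cxcl1, Cxcl2, Cxcl3 and Cxcl6 were again called. Deviations of same-numbered libraries from their group mean correlated at -0.323, -0.274 and -0.0794. These values cannot decide whether the numbers pair the samples. The libraries of the Control pair are nearly the same, so each correlation mostly reflects the contrast between that pair and the other Control library. The causes of these shifts were not tested.

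Omission of a library or the Control pair, which leaves fewer samples except where only Control replicate 2 or 3 is left out, gave 0 to 313 genes lower and 0 to 136 higher, 0 to 4 members lower, and 0 to 20 list genes lower and 0 to 1 higher. The log2 fold changes then ran from -7.00 to -5.91 for Cxcl1, -8.09 to -6.72 for Cxcl2, -12.64 to -10.08 for Cxcl3 and -7.77 to -6.87 for Cxcl6. Without Control replicate 1 or the pair, the lone Control sample is assumed to vary like the other group.

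Of 200 list genes tested, 20 were called lower and 1 higher, beside 2.02% and 0.888% of all genes tested. A log2 fold change above 2 left 10 lower, and the number higher was 9 with 6 libraries, 5 with the replicate block, 20 with DESeq2 and 2 each with library totals only and without a filter. DESeq2 called 1 member higher, Ppbp, at a log2 fold change of 4.36. Limma-voom did not call Cxcl2 (log2 fold change -7.42, adjusted p = 0.0703, range over alternatives 1.54e-26 to 0.136).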
